A study of Mus musculus with 12 samples.

Results

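Cholesterol is built from acetyl-CoA through the mevalonate pathway, and the genes described here are 32 mouse genes of that pathway and of its SREBP control, chosen by symbol. They were picked by what their products do, with earlier results of these data known. The set holds 2 genes of acetyl-CoA supply, 7 of the early mevalonate pathway, 3 from squalene to the first sterol and 9 of the steps after lanosterol. It also holds 4 genes of the isoprenoid branches, 1 sterol transport gene and 6 genes of SREBP control. All 32 were found among the 46078 gene identifiers of the files, and all 32 passed the filter on low counts, which kept 13837 genes.

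RNA was sequenced from bone marrow-derived macrophages, obtained by growing marrow cells for 7 days with conditioned medium of L929 cells. The Dicer KO mice are titled LysMcre/+;Dicerfl/fl;ApoE-/-. In them Cre recombinase sits in the Lyz2 locus, is active in myeloid cells, and removes the floxed part of Dicer1, the gene of the enzyme that cuts microRNA precursors. Littermate controls are titled LysMcre/+;Dicer+/+;ApoE-/-, while their genotype field reads wildtype and the names of their files mark the LysM locus as wild type. All mice were male C57BL/6 and lacked Apoe, so the cells of every group did too. Cells were moved to serum-free medium, given dilute ethanol overnight, and then treated for 6 h with lipopolysaccharide (LPS, a bacterial envelope molecule sensed by TLR4) at a stated 100 ng/ul or with phosphate-buffered saline (vehicle). Genotype and treatment gave 4 groups of 3 libraries, called Dicer KO LPS, control LPS, Dicer KO vehicle and control vehicle. Whether the replicates of a group are separate mice is not stated in the labels. The p-values then measure only the spread between samples, which may be technical.

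Cells make cholesterol from acetyl-CoA by way of mevalonate, farnesyl pyrophosphate, squalene and lanosterol, and side branches lead to dolichol, ubiquinone and the lipids that anchor small GTPases. The transcription factor SREBP2 turns most genes of the route on. It is made as a membrane protein that SCAP escorts out of the endoplasmic reticulum when sterols are low, and that INSIG proteins hold back when sterols are high. In macrophages the pathway is also known to respond to Toll-like receptor signals and to interferons.

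Promoter sequences are shown because SREBP2 binds sterol regulatory elements beside sites of NF-Y and Sp1. Windows of 300 bases, from 250 before to 50 after the annotated start, were taken from RefSeq on GRCm38.p6, and 28 of the 32 genes matched an entry, the exceptions being Fdps, Fdft1, Sqle and Stard4. Both strands were searched for TCACNCCAC, a form of the sterol regulatory element, for CCAAT, the NF-Y motif, and for GGGCGG, the Sp1 motif. TCACNCCAC was in the window of 1 of the 28 genes, Hmgcs1, against 1.43% of 26742 genes with a window. CCAAT was in 23 of the 28 (82.1%), against 41.0% of all genes with a window, and GGGCGG in 24 of the 28 (85.7%), against 38.5%. All genes with a window include genes that did not pass the filter on low counts, whereas the 28 all passed it. The sets are thus unlike, and shares among genes passing the filter were not computed. A match of letters is a description and not a site, and other forms of these elements were not searched. The windows below are printed 5′ to 3′ on the gene's strand, with matches to TCACNCCAC and CCAAT in capitals (ATTGG is CCAAT read on the other strand). Hmgcs1 is shown as the gene that holds TCACCCCAC, 137 bases before its start, and in its window that match overlaps no CCAAT match. Mvd and Lss, 2 genes with large differences between genotypes, and Ebp, a gene with almost none, were picked after their values were seen.
Hmgcs1 (chr13:119690101-119690400, plus strand): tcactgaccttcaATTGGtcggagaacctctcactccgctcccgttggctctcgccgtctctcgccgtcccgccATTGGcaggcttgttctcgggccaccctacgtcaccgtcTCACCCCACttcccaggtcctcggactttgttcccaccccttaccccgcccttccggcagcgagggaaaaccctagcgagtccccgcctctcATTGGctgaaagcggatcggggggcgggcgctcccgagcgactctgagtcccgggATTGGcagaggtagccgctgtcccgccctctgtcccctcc
Mvd (chr8:122443373-122443672, minus strand): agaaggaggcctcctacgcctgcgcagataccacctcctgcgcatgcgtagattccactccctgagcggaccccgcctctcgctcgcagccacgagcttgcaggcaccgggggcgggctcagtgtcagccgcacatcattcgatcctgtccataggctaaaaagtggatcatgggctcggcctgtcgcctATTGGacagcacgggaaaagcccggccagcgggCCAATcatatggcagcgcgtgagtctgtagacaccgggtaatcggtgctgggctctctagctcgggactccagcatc
Lss (chr10:76531355-76531654, plus strand): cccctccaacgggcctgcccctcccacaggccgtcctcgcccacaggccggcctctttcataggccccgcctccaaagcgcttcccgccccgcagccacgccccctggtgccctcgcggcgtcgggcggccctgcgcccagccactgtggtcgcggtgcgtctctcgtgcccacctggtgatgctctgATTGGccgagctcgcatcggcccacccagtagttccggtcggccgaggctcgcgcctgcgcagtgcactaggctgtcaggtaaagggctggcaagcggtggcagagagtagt
Ebp (chrX:8193463-8193762, minus strand): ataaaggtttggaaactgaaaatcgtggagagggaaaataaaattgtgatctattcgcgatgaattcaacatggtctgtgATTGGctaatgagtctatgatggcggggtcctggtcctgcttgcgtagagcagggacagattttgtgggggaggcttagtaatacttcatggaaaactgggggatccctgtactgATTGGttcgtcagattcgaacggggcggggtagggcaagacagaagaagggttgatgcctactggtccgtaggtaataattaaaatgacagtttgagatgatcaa
The Hmgcs1 window holds 4 CCAAT matches, the Mvd and Ebp windows 2 each, and the Lss window 1. So CCAAT was present both in windows of genes that were lower in Dicer KO cells under LPS and in that of Ebp, which was not called.

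Between 16172600 and 18886948 read counts fell in genes per library. Levels are CPM, the reads of a gene relative to library size after scaling by edgeR's TMM method, which takes the typical gene as unchanged. Dicer1 averaged 15.5 ± 1.099 CPM in Dicer KO LPS and 49.4 ± 2.84 in control LPS libraries, and 19.7 ± 0.369 in Dicer KO vehicle and 43.7 ± 1.44 in control vehicle libraries (SD, n = 3 each). Lyz2, whose locus carries Cre, averaged 18.9 and 4060 CPM in Dicer KO and control cells under LPS, and 14.1 and 5714 CPM in vehicle, so effects of Dicer1 loss and of the Lyz2 locus cannot be told apart. The title LysMcre/+ leaves a wild-type allele of this locus, so the near loss of Lyz2 in Dicer KO cells is at odds with their title. The reason was not tested. Apoe, absent by genotype in every group, averaged 1.203 ± 0.27005, 4.24 ± 0.622, 5.61 ± 0.6104 and 17.9 ± 1.91 CPM in Dicer KO LPS, control LPS, Dicer KO vehicle and control vehicle libraries. Summed macrophage markers, Lyz2 included, were at 9229 to 9417 CPM in Dicer KO LPS, 12443 to 13000 in control LPS, 6712 to 7608 in Dicer KO vehicle and 12334 to 13603 in control vehicle, with none of the 8 markers at 0. Without Lyz2 the sums of the other 7 were 9213 to 9397 CPM in Dicer KO LPS and 8551 to 8719 in control LPS. In vehicle they were 6699.7 to 7592 in Dicer KO and 6964 to 7669 in control. The Dicer KO sums were then above the controls under LPS and overlapped them in vehicle. Single markers went both ways. Under LPS, Adgre1, Csf1r, Itgam and Cd14 lay below the controls in Dicer KO libraries without overlap, while Cd68, Mertk and Fcgr1 lay above. For Adgre1 the ranges were 1731 to 1936 CPM in Dicer KO LPS and 2096 to 2163 in control LPS. Those of Fcgr1 were 2388 to 2404 and 1282 to 1499. In vehicle Adgre1, Csf1r, Itgam and Cd14 again lay below, Cd68 and Fcgr1 lay above, and Mertk overlapped. Neutrophil markers summed to 157 to 179 CPM in Dicer KO LPS, 148 to 160 in control LPS, 93.8 to 124 in Dicer KO vehicle and 101 to 134 in control vehicle. Ly6g was at 0 in Dicer KO LPS. Dendritic cell markers summed to 16.6 to 17.8 CPM in Dicer KO LPS, 6.78 to 8.45 in control LPS, 2.52 to 4.42 in Dicer KO vehicle and 1.18 to 1.54 in control vehicle. Under LPS these sums were mostly Ccr7 (9.01 to 9.11 CPM in Dicer KO and 4.36 to 5.83 in control) and Xcr1 (6.10 to 7.97 and 1.30 to 1.82). The others of that list, Flt3, Zbtb46, Clec9a and Siglech, reached at most 0.721 CPM in any library. The lists for B cells, T and NK cells, stromal, erythroid, and mast cells and basophils reached at most 5.06 CPM in any library, and the part of other cell types in the results was not tested. In such bulk samples, fewer cells of a type and less RNA per cell cannot be told apart.

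In vehicle, replicate 2 of Dicer KO and replicate 3 of control each stood apart within its group. Their counts differed from those of their group by a chi-square per degree of freedom of 8.40 and 11.9 for the Dicer KO library, against 2.30 for the other pair, and of 9.84 and 14.1 for the control library, against 2.54. The cholesterol genes moved with this, since the Dicer KO library was the highest of its group for 26 of the 32 genes and the control library for 25, and Dicer KO LPS replicate 1 was the lowest of its group for 25. That library differed from the others of its group by 4.20 and 5.06, against 1.32 for the other pair, while pairs of control LPS libraries differed by 2.79 to 5.09. Summed over the 32 genes, the level was 1313, 1534 and 1547 CPM in Dicer KO LPS, 2386, 2251 and 2226 in control LPS, 1140, 1401 and 1211 in Dicer KO vehicle, and 972, 997 and 1211 in control vehicle. Control LPS libraries were therefore highest, all above the 9 others. Fits without both vehicle libraries that stood apart leave these out after their values were seen. Such fits have fewer libraries and a smaller spread in each vehicle group, so a small adjusted p from them is weak.

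Under LPS the pathway was lower in Dicer KO than in control macrophages at most steps of the sterol route. Of the 32 genes, 22 were lower and 3 higher (edgeR quasi-likelihood test, Benjamini-Hochberg adjusted p under 0.05), where 27.0% of all tested genes were lower and 28.8% higher, 55.8% in all. None of the 22 had overlapping groups, against 26.0% of all genes lower without overlap and 28.2% higher without overlap. By fold, 11 of the 22 were lower by 2-fold or more and 1, Fdps, by 4-fold or more. The median log2 fold change was -0.74 over the 32 genes and -0.03 over all genes tested. The 3 higher genes were Ggps1 and Pdss1, which lead into isoprenoid branches, and Scap. Without the 2 vehicle libraries that stood apart, the counts were 23 lower and 3 higher, and without Dicer KO LPS replicate 1 they were 21 and 3 with a median of -0.64. With library totals in place of TMM, the median over all genes moved from -0.03 to -0.38, the genes called higher and lower moved from 3983 and 3741 to 1885 and 7626, and the 32 genes had 29 lower and 2 higher.

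**Figure D1:**
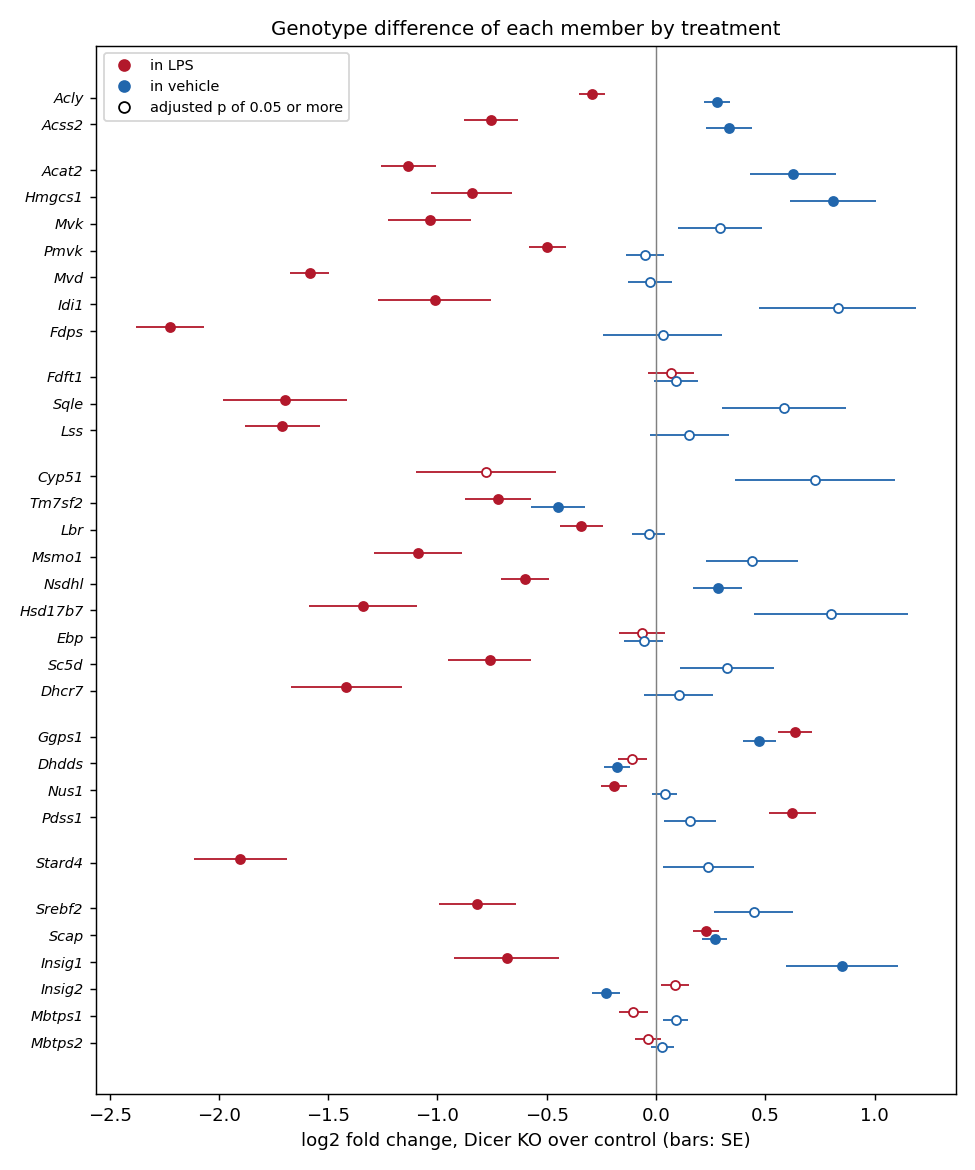
Log2 fold change of Dicer KO over control for each of the 32 genes, in LPS (red) and in vehicle (blue), with SE bars; open points have an adjusted p of 0.05 or more. In LPS 22 genes lie left of 0 with filled points and 3 lie right of it, of which Scap changes side with library totals, while in vehicle 3 are filled to the left and 8 to the right.

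In vehicle fewer members were called between genotypes, and most of those called were higher. There, 8 of the 32 genes were higher in Dicer KO cells (Ggps1, Scap, Acly, Hmgcs1, Acss2, Acat2, Insig1 and Nsdhl) and 3 lower (Tm7sf2, Insig2 and Dhdds), where 25.0% of all genes were higher and 21.2% lower, 46.2% in all. The share of higher members thus equalled the background. Groups did not overlap for 6 of the 8 higher and for the 3 lower genes, beside 23.5% and 20.1% of all genes. The median was 0.25 over the 32 genes and 0.01 over all genes. The median of the 32 genes was 0.13 without Dicer KO vehicle replicate 2 and 0.14 without control vehicle replicate 1. It was 0.34 without control vehicle replicate 3 and 0.32 without both vehicle libraries that stood apart. With library totals it was 0.13, beside -0.12 over all genes. The count rests on the libraries that stood apart. Without both of them, 17 genes were higher and 2 lower, without control vehicle replicate 3 alone 18 were higher, and without control vehicle replicate 1, control vehicle replicate 2 or Dicer KO vehicle replicate 2 in turn 5 were. With library totals 6 were higher and 3 lower, the median of all genes moved to -0.12, and genes called higher and lower moved from 3459 and 2935 to 2229 and 4577.

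LPS raised most of the sterol route in control macrophages, and raised it less in Dicer KO macrophages. In control cells 22 of the 32 genes were higher with LPS, 18 of them by 2-fold or more and 12 by 4-fold or more, and 6 were lower, where 38.0% of all genes were higher and 41.1% lower, 79.1% in all. Without overlap there were 21 higher and 6 lower members, beside 37.0% and 40.0% of all genes. In Dicer KO cells 14 were higher, 8 by 2-fold or more and 1 by 4-fold or more, and 10 were lower, where 37.4% of all genes were higher and 42.7% lower, 80.1% in all. None of these 24 had overlapping groups, beside 36.7% higher and 41.9% lower among all genes. The median log2 fold change of the 32 genes was 0.27 in Dicer KO and 1.18 in control cells, against -0.10 and -0.06 over all genes. Without the vehicle libraries that stood apart, Dicer KO cells had 17 higher and 10 lower, and control cells 22 and 6. Without Dicer KO LPS replicate 1, Dicer KO cells had 15 higher and 7 lower. With library totals, the medians over the 32 genes moved to -0.48 in Dicer KO and 0.66 in control cells, and the medians over all genes moved to -0.85 in Dicer KO and -0.58 in control cells. The members then had 6 higher and 19 lower in Dicer KO and 18 higher and 14 lower in control cells, and all genes had 2637 higher and 9623 lower in Dicer KO (5173 and 5905 with TMM) and 3066 higher and 8737 lower in control cells (5258 and 5690 with TMM).

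**Figure D2:**
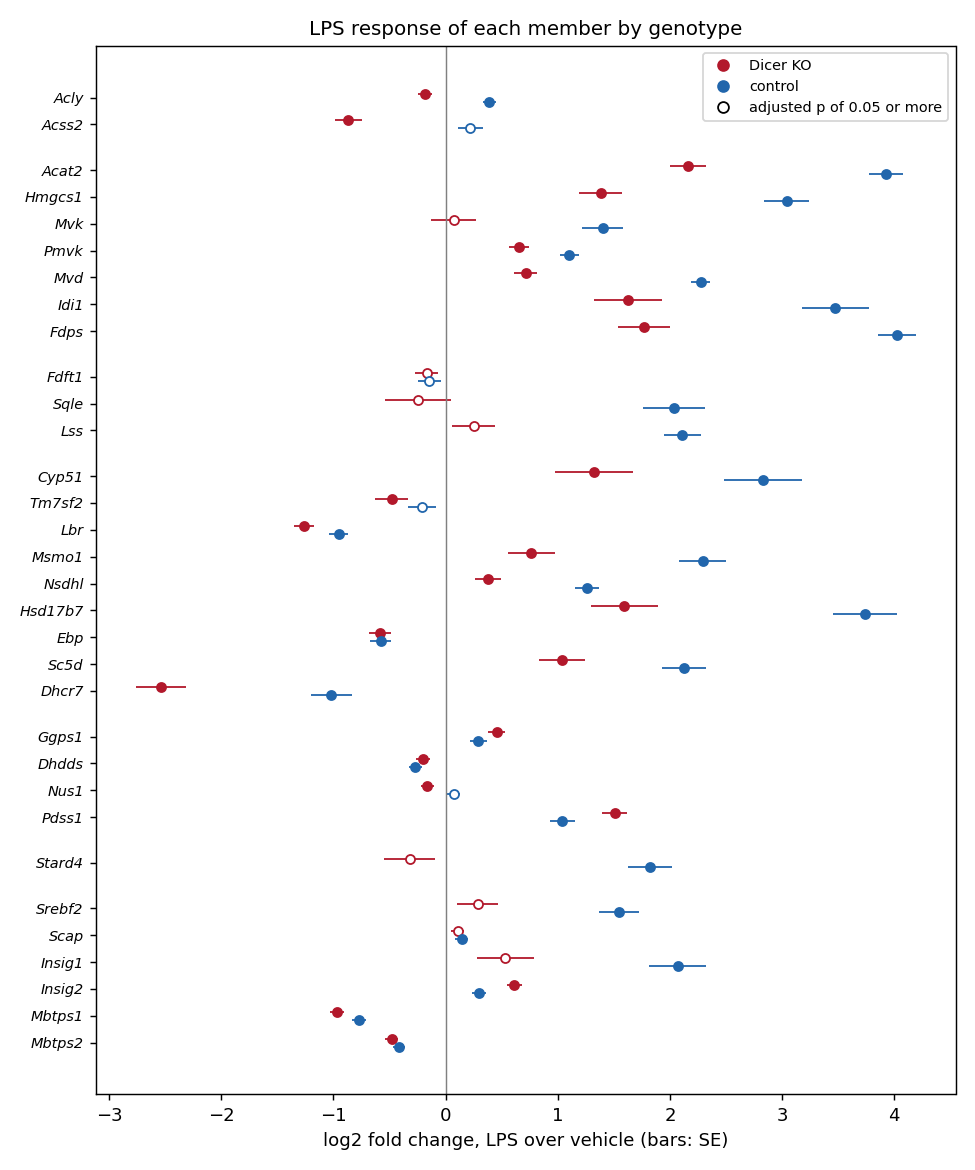
Log2 fold change of LPS over vehicle for each of the 32 genes in Dicer KO (red) and control (blue) cells, with SE bars; open points have an adjusted p of 0.05 or more. Red points lie left of blue ones for most sterol genes (Mvd at 0.72 in Dicer KO and 2.27 in control, Lss at 0.25 and 2.11), and with library totals the red point of Mvd moves to -0.03 and that of Lss to -0.50.

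The difference of the 2 LPS responses was tested directly as an interaction, the log2 response in Dicer KO minus that in control cells. It was lower for 21 genes and higher for 2 (Insig2 and Pdss1), where 18.8% of all genes were lower and 14.9% higher, 33.7% in all. Of the 21, 17 differed by 2-fold or more and 4 by 4-fold or more, and the median was -1.09 over the 32 genes and -0.04 over all genes. Of the 22 genes that LPS raised in control cells, 18 had a lower response in Dicer KO cells, and the 4 others were Ggps1, Insig2, Pdss1 and Scap. Among the 22, 14 were also raised in Dicer KO cells, 7 were not called there (Insig1, Lss, Mvk, Scap, Sqle, Srebf2 and Stard4), and Acly was lower. The 22 were picked by their control response, which the interaction subtracts, so these splits lean towards a lower response by selection. The matching shares among all genes that LPS raised in control cells were not computed. The interaction uses the same libraries as the comparisons above, so it is no independent result. Without the vehicle libraries that stood apart, 21 genes were lower and 1 higher, and without Dicer KO LPS replicate 1 they were 19 and 2. With library totals 26 were lower and 0 higher, the median of all genes moved to -0.27, and genes called higher and lower moved from 2067 and 2602 to 997 and 5136.

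**Figure D3:**
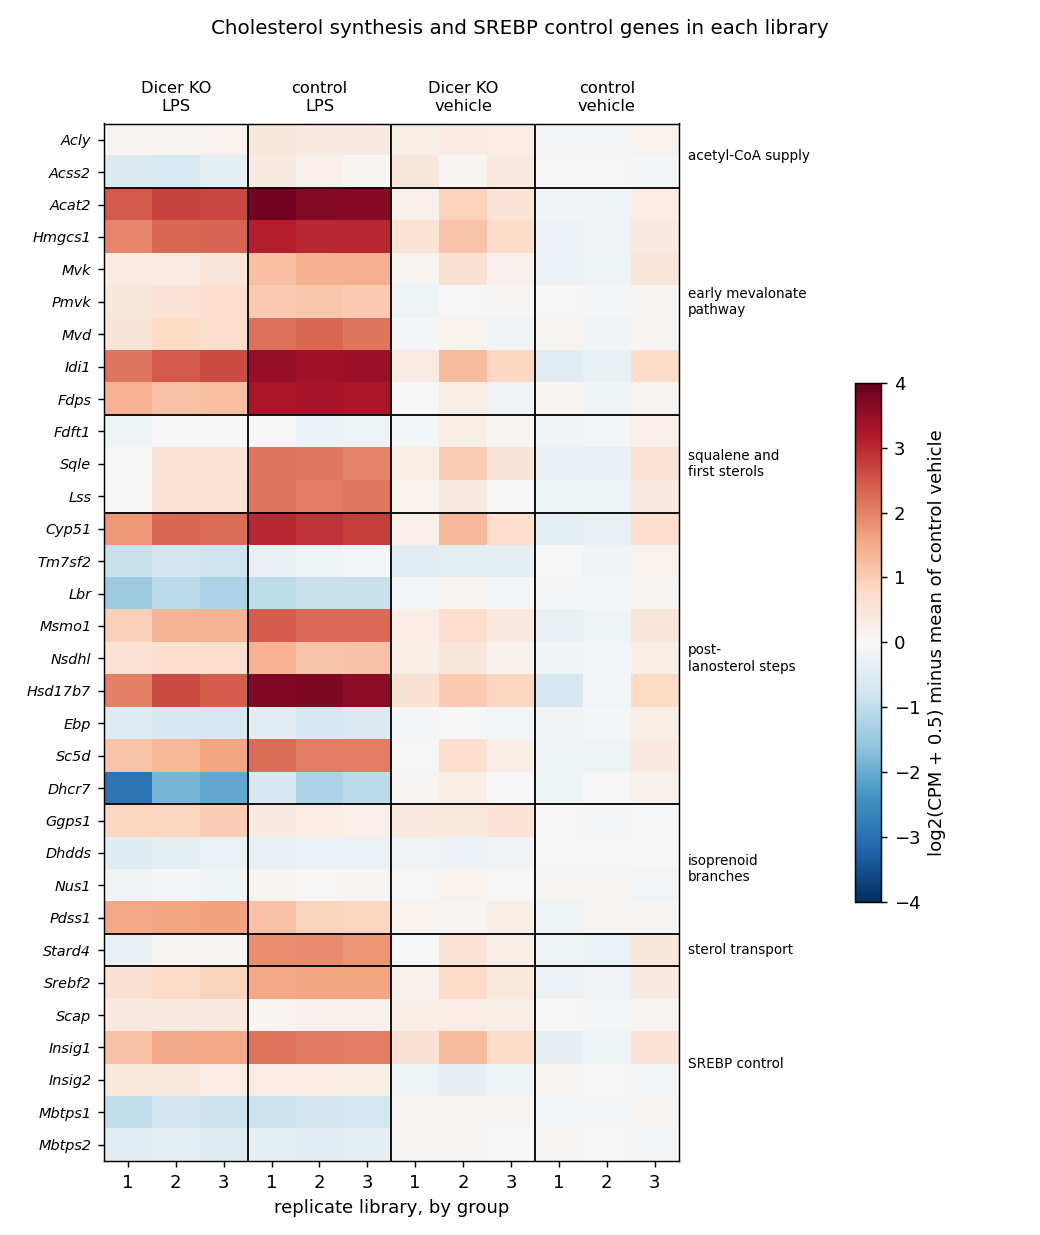
Log2(CPM + 0.5) of each of the 32 genes (rows, by step) in each of the 12 libraries (columns, by group), relative to the mean of the 3 control vehicle libraries; red is higher and blue lower, on a scale cut at 4. The control LPS columns are the reddest over most of the mevalonate and sterol rows. Summed over all 32 genes, the level was 2226 to 2386 CPM in control LPS, against 1313 to 1547 CPM in Dicer KO LPS.

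Acetyl-CoA supply comes first. Acly encodes ATP citrate lyase, which makes cytosolic acetyl-CoA from citrate. Acly was at 113, 118 and 122 CPM in Dicer KO LPS, 151, 139.6 and 142 in control LPS, 129.7, 137 and 134 in Dicer KO vehicle, and 103, 105 and 121 in control vehicle libraries. Its groups did not overlap under either treatment, and their order turned over, with Dicer KO lower under LPS (-0.29 ± 0.06, adjusted p = 0.000454) and higher in vehicle (0.28 ± 0.06, adjusted p = 0.000825). LPS lowered it in Dicer KO cells (-0.18 ± 0.06, adjusted p = 0.0103, which reached 0.149 under other settings) and raised it in control cells (0.39 ± 0.06, -0.13 with library totals). Here and below, values in parentheses after a direction are log2 fold changes ± SE. Acss2, which makes acetyl-CoA from acetate, was at 6.91, 6.68 and 7.91 CPM in Dicer KO LPS, 13.4, 11.9 and 10.98 in control LPS, 14.5, 10.97 and 13.7 in Dicer KO vehicle, and 10.6, 10.4 and 10.1 in control vehicle libraries. Dicer KO LPS libraries stood below all others for Acss2. The genotype difference was -0.75 ± 0.12 under LPS and 0.34 ± 0.11 in vehicle, the second with an adjusted p of 0.0143 that reached 0.105 when single libraries were left out. LPS lowered Acss2 in Dicer KO cells (-0.87 ± 0.12) and it was not called in control cells (0.22 ± 0.11, adjusted p = 0.0707). Exons of Ggt7, Acss2os and Gss on the opposite strand cover 9.12% of the Acss2 exons. Gss averaged 7.27 CPM in Dicer KO LPS, 9.57 in control LPS, 12.1 in Dicer KO vehicle and 12.3 in control vehicle libraries. The part of these genes in the Acss2 values was not tested.

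The 7 genes of the early mevalonate pathway were all lower in Dicer KO cells under LPS, by a median log2 fold change of -1.04 (range -2.22 to -0.50). Hmgcs1 joins acetyl-CoA to acetoacetyl-CoA and carries the sterol regulatory element form printed above. It was at 179, 226 and 232 CPM in Dicer KO LPS, 402, 374 and 368 in control LPS, 66.7, 101 and 76.8 in Dicer KO vehicle, and 38.5, 41.4 and 59.2 in control vehicle libraries. Under LPS the Dicer KO libraries were all lower than the controls, and in vehicle all were higher. The difference was -0.84 ± 0.19 under LPS (adjusted p = 0.00344) and 0.81 ± 0.20 in vehicle (adjusted p = 0.00775). LPS raised it 2.61-fold in Dicer KO and 8.22-fold in control cells, an interaction of -1.65 ± 0.27 (adjusted p = 0.00127). Exons of a gene on the opposite strand, Gm48342, cover 12.1% of the Hmgcs1 exons, and the strand setting of the counting is not given in the sources used here.

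Acat2, the enzyme that joins acetyl-CoA units to acetoacetyl-CoA, was at 18.2, 21.3 and 21.01 CPM in Dicer KO LPS, 48.5, 42.8 and 41.6 in control LPS, 3.35, 5.87 and 4.39 in Dicer KO vehicle, and 2.55, 2.53 and 3.68 in control vehicle libraries. LPS raised it 4.47-fold in Dicer KO and 15.2-fold in control cells, where only Fdps was raised further among the 32 genes. Dicer KO was lower under LPS (-1.13 ± 0.13, adjusted p = 1.28e-06) and higher in vehicle, where the groups overlapped (0.63 ± 0.20, adjusted p = 0.0158, at most 0.0787 with single libraries left out or the vehicle libraries fitted alone). Over 65.6% of its transcript, Acat2 matches Acat3 or overlaps Tcp1 at 95% identity or more, so its counts are uncertain.

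Mvd decarboxylates mevalonate pyrophosphate to isopentenyl pyrophosphate, the unit of all isoprenoids. It was at 14.3, 17.3 and 16.3 CPM in Dicer KO LPS, 47.3, 50.97 and 45.4 in control LPS, 9.49, 10.9 and 8.82 in Dicer KO vehicle, and 10.5, 8.96 and 10.2 in control vehicle libraries. The vehicle groups overlapped, whereas under LPS each control library was more than 2-fold above each Dicer KO library. The genotype difference was -1.58 ± 0.09 under LPS, or 2.999-fold lower (adjusted p = 6.46e-11), and -0.03 ± 0.10 in vehicle (adjusted p = 0.851). LPS raised Mvd 1.64-fold in Dicer KO cells, which is -0.03 on the log2 scale with library totals, and 4.83-fold in control cells. The kinases ahead of Mvd behaved in the same direction under LPS. Mvk, which adds the first phosphate to mevalonate, was at 7.66, 7.81 and 8.59 CPM in Dicer KO LPS, 14.7, 17.1 and 17.6 in control LPS, 6.61, 9.47 and 6.91 in Dicer KO vehicle, and 4.98, 5.13 and 8.61 in control vehicle libraries. LPS raised Mvk in control cells (1.40 ± 0.18) and Dicer KO cells had 0.07 ± 0.20, which was not called. Pmvk, which adds the second, was at 14.9, 16.3 and 17.4 CPM in Dicer KO LPS, 22.5, 23.6 and 22.5 in control LPS, 9.21, 10.6 and 11.01 in Dicer KO vehicle, and 10.6, 10.3 and 10.9 in control vehicle libraries. Its groups overlapped in vehicle and not under LPS, where Dicer KO was lower by 1.41-fold. LPS raised Pmvk in both genotypes (0.66 ± 0.09 in Dicer KO, -0.09 with library totals, and 1.10 ± 0.08 in control).

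Idi1 turns isopentenyl pyrophosphate into its reactive isomer, and Fdps joins such units into farnesyl pyrophosphate. Idi1 was at 17.4, 21.9 and 24.1 CPM in Dicer KO LPS, 44.8, 40.7 and 42.7 in control LPS, 4.61, 9.32 and 6.72 in Dicer KO vehicle, and 2.51, 2.77 and 6.27 in control vehicle libraries. Fdps, the lowest of the early genes per kb of exon, was at 2.48, 2.03 and 2.11 CPM in Dicer KO LPS, 10.2, 10.7 and 10.1 in control LPS, 0.605, 0.824 and 0.513 in Dicer KO vehicle, and 0.688, 0.489 and 0.7103 in control vehicle libraries. Both were lower in Dicer KO under LPS with no overlap, Idi1 with a log2 fold change of -1.01 ± 0.26 (adjusted p = 0.00736) and Fdps with -2.22 ± 0.16, or 4.67-fold lower (adjusted p = 1.18e-09). In vehicle the groups overlapped for both (0.83 ± 0.36 for Idi1 and 0.03 ± 0.27 for Fdps, neither called). LPS raised Idi1 3.09-fold in Dicer KO and 11.1-fold in control cells, and Fdps 3.41-fold and 16.3-fold. Near-identical copies limit both, since 91.4% of the Fdps transcript and 33.3% of the Idi1 transcript match other annotated genes at 95% identity or more. Without the vehicle libraries that stood apart, Idi1 was called higher in Dicer KO vehicle cells, at 1.10.

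Of the 3 enzymes from farnesyl pyrophosphate to lanosterol, Sqle and Lss were lower in Dicer KO cells under LPS and Fdft1 was not called. Fdft1, squalene synthase, lay between 169 and 188 CPM in Dicer KO LPS, 161 and 191 in control LPS, 186 and 229 in Dicer KO vehicle, and 171 and 221 in control vehicle libraries. None of its 5 tests was called, with log2 fold changes between -0.17 and 0.09 and adjusted p of 0.149 to 0.925. Exons of Ctsb on the opposite strand cover 18.3% of the Fdft1 exons, and Ctsb averaged 14969 CPM in Dicer KO LPS, 9106 in control LPS, 15777 in Dicer KO vehicle and 12271 in control vehicle libraries. Its transcript also matches or overlaps 2 other genes over 54.7% of its length, so the Fdft1 level is uncertain and the part of those genes in it was not tested.

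Sqle encodes squalene monooxygenase, a control point of the sterol route, and was at 24.3, 34.8 and 35.3 CPM in Dicer KO LPS, 106, 104 and 96.3 in control LPS, 28.6, 49.2 and 34.6 in Dicer KO vehicle, and 19.4, 19.5 and 35.9 in control vehicle libraries. Control LPS libraries were set apart from the other 3 groups, which overlapped one another. Dicer KO was 3.24-fold lower under LPS (-1.70 ± 0.28, adjusted p = 0.000795), and in vehicle it was not called (0.59 ± 0.28, adjusted p = 0.126, and 0.70 with adjusted p = 0.00381 without the vehicle libraries that stood apart). LPS raised it 4.099-fold in control cells, and the Dicer KO response was -0.25 ± 0.29 (adjusted p = 0.4603). Lss, lanosterol synthase, whose promoter is printed above, was at 13.7, 20.7 and 20.3 CPM in Dicer KO LPS, 61.4, 57.6 and 59.8 in control LPS, 15.1, 17.6 and 13.4 in Dicer KO vehicle, and 11.8, 11.9 and 17.7 in control vehicle libraries. The 3 control LPS libraries were again far above the 9 others. The genotype difference under LPS was -1.71 ± 0.17, or 3.27-fold lower (adjusted p = 5.12e-06). LPS raised Lss 4.32-fold in control cells, while the response in Dicer KO cells was not called (0.25 ± 0.19, adjusted p = 0.239, -0.50 with library totals).

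**Figure D4:**
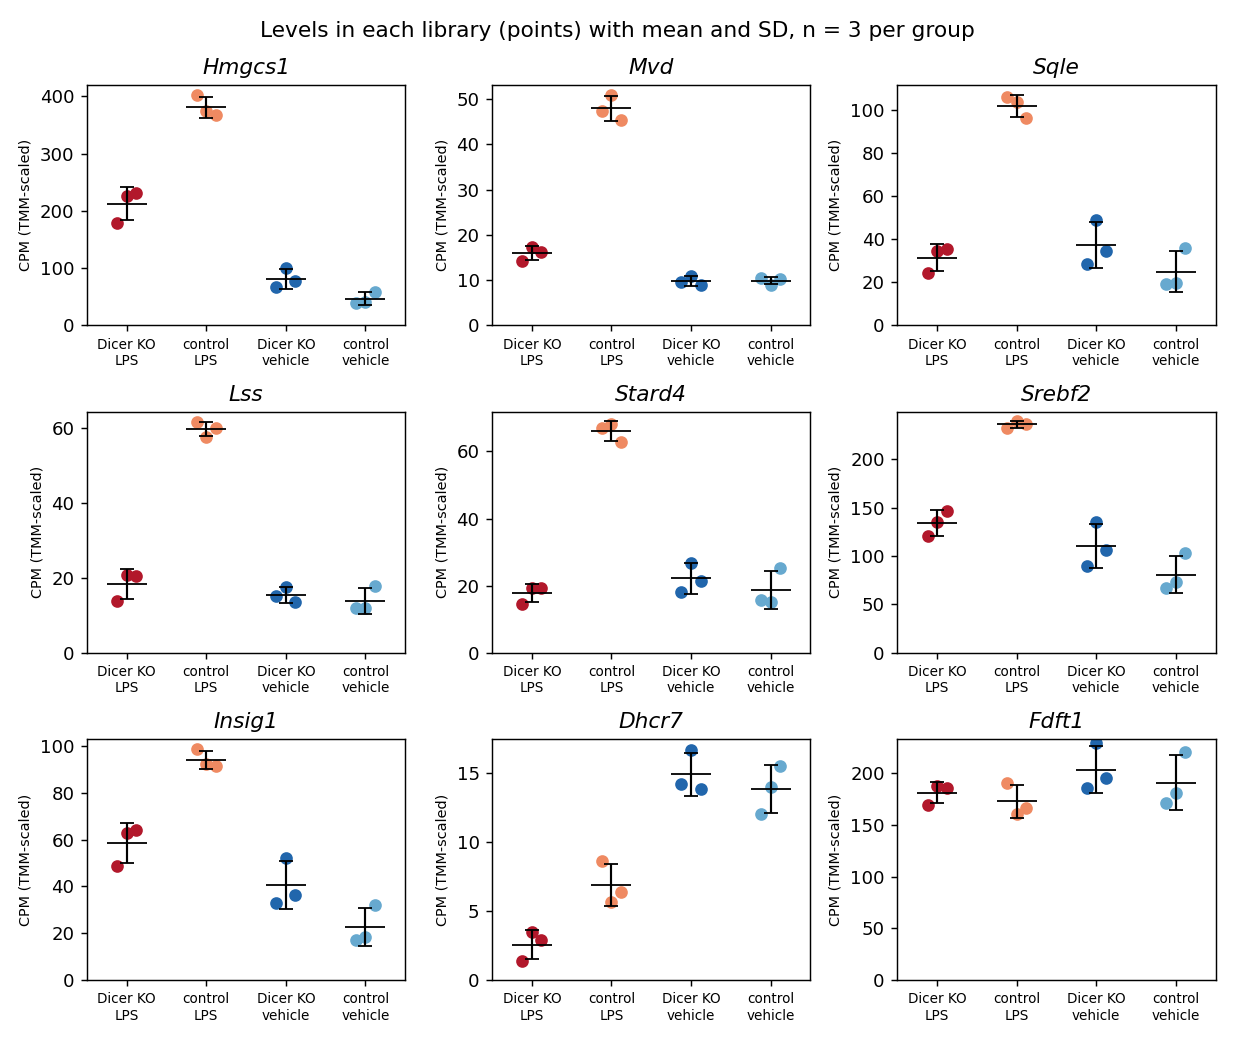
CPM in each library (points) with mean and SD bars (n = 3 per group) for 9 of the 32 genes, in the order Dicer KO LPS, control LPS, Dicer KO vehicle and control vehicle. Control LPS points lie above all others for Hmgcs1, Mvd, Sqle, Lss, Stard4, Srebf2 and Insig1, while Dhcr7 is lowest in Dicer KO LPS (1.35 to 3.45 CPM) and Fdft1 overlaps across groups.

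Of the 9 genes after lanosterol, 7 were lower in Dicer KO cells under LPS, with a median of -0.76 over the 9. Msmo1, the oxidase that starts removal of a pair of methyl groups, was at 79.8, 105 and 104 CPM in Dicer KO LPS, 221, 196 and 197 in control LPS, 49.7, 66.99 and 53.2 in Dicer KO vehicle, and 33.3, 35.5 and 56.5 in control vehicle libraries. Nsdhl, the dehydrogenase of the same steps, was at 16.5, 17.4 and 18.002 CPM in Dicer KO LPS, 29.3, 24.5 and 24.9 in control LPS, 12.8, 14.9 and 12.2 in Dicer KO vehicle, and 9.79, 10.1 and 12.95 in control vehicle libraries. Hsd17b7, the ketone reductase that closes them, was at 14.7, 22.2 and 19.6 CPM in Dicer KO LPS, 48.6, 49.3 and 45.3 in control LPS, 5.21, 7.26 and 6.299 in Dicer KO vehicle, and 1.82, 2.93 and 6.02 in control vehicle libraries. For these 3 genes Dicer KO LPS libraries lay between the vehicle groups and the control LPS libraries. Under LPS the Dicer KO values were lower by 2.13-fold, 1.52-fold and 2.54-fold, with adjusted p of 0.00136, 0.000128 and 0.00106. LPS raised Msmo1 1.6995-fold in Dicer KO and 4.902-fold in control cells, Nsdhl 1.301-fold (-0.37 on the log2 scale with library totals) and 2.399-fold, and Hsd17b7 3.02-fold and 13.3-fold. Nsdhl was also higher in Dicer KO vehicle libraries, with overlapping groups (0.28 ± 0.11, adjusted p = 0.0457, up to 0.244 under other settings).

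Cyp51, the demethylase that acts on lanosterol, was at 58.8, 86.6 and 83.98 CPM in Dicer KO LPS, 143, 131 and 120.1 in control LPS, 20.2, 43.8 and 28.1 in Dicer KO vehicle, and 13.2, 13.9 and 28.2 in control vehicle libraries. The LPS groups did not overlap, but the genotype difference was not called (-0.78 ± 0.32, adjusted p = 0.0687), and was called under 5 of 20 other settings. Its SE of 0.32 was the highest of the 32 genes in that comparison. LPS raised Cyp51 2.504-fold in Dicer KO and 7.12-fold in control cells, and the interaction of -1.51 ± 0.49 had an adjusted p of 0.0433 that reached 0.0973 and was lost under 12 of 19 other settings. Sc5d, the desaturase late in the route, was at 31.6, 36.6 and 43.2 CPM in Dicer KO LPS, 68.5, 59.99 and 60.4 in control LPS, 14.4, 22.7 and 17.2 in Dicer KO vehicle, and 12.1, 12.3 and 18.8 in control vehicle libraries. It was lower in Dicer KO under LPS (-0.76 ± 0.19, adjusted p = 0.00628), and LPS raised it 2.06-fold in Dicer KO and 4.37-fold in control cells. With library totals the LPS calls of Msmo1, Cyp51 and Sc5d in Dicer KO cells were lost, with adjusted p of 0.944, 0.141 and 0.192.

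Dhcr7, the reductase of the last step of one route to cholesterol, went another way. It was at 1.35, 3.45 and 2.86 CPM in Dicer KO LPS, 8.58, 5.63 and 6.39 in control LPS, 14.2, 16.7 and 13.8 in Dicer KO vehicle, and 12.1, 13.97 and 15.5 in control vehicle libraries. LPS lowered it in both genotypes, 5.81-fold in Dicer KO and 2.02-fold in control cells, so that it fell further where the other enzymes were raised less. The vehicle groups overlapped, and under LPS Dicer KO was lower by 2.67-fold (-1.42 ± 0.25, adjusted p = 0.000231). The sterol reductases Tm7sf2 and Lbr, which act on the same double bond, were also not raised. Tm7sf2 was at 2.78, 3.08 and 2.86 CPM in Dicer KO LPS, 4.39, 4.84 and 5.15 in control LPS, 3.96, 4.17 and 4.06 in Dicer KO vehicle, and 5.504, 5.01 and 6.1004 in control vehicle libraries. It was lower in Dicer KO under both treatments (-0.72 ± 0.15 in LPS and -0.45 ± 0.12 in vehicle), and 12.1% of its exons overlap Vps51 on the same strand. Lbr, also a protein of the inner nuclear membrane, was at 11.9, 15.6 and 13.7 CPM in Dicer KO LPS, 16.2, 17.9 and 18.05 in control LPS, 30.9, 35.8 and 32.01 in Dicer KO vehicle, and 32.6, 32.9 and 35.5 in control vehicle libraries. LPS lowered Lbr 2.39-fold in Dicer KO and 1.93-fold in control cells. Ebp, a sterol isomerase, ranged from 18.3 to 20.6 CPM in Dicer KO LPS, 18.6 to 22.2 in control LPS, 27.6 to 30.5 in Dicer KO vehicle and 27.1 to 35.0 in control vehicle libraries. Genotypes overlapped for Ebp under both treatments, and LPS lowered it 1.501-fold in Dicer KO and 1.49-fold in control cells.

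Directions were mixed in the isoprenoid branches. Ggps1 makes the geranylgeranyl group that anchors Rab proteins, and was at 24.5, 24.6 and 27.04 CPM in Dicer KO LPS, 17.1, 16.3 and 15.6 in control LPS, 17.7, 17.9 and 19.9 in Dicer KO vehicle, and 13.4, 12.95 and 13.6 in control vehicle libraries. Dicer KO libraries were above the controls under both treatments, 0.64 ± 0.08 in LPS (adjusted p = 1.31e-06) and 0.47 ± 0.07 in vehicle (adjusted p = 4.92e-05). LPS raised it 1.37-fold in Dicer KO and 1.23-fold in control cells, but with library totals these responses were -0.29 and -0.23 on the log2 scale. Copies of 95% identity or more cover 27.3% of the Ggps1 transcript. Exons of Arid4b on the opposite strand cover 5.44% of the Ggps1 exons, and Arid4b averaged 58.9 CPM in Dicer KO LPS, 37.0 in control LPS, 39.1 in Dicer KO vehicle and 38.9 in control vehicle libraries, whose part in the Ggps1 values was not tested. Pdss1, a subunit of the enzyme that builds the ubiquinone tail, was at 16.1, 16.2 and 16.9 CPM in Dicer KO LPS, 12.3, 9.99 and 9.74 in control LPS, 5.72, 5.41 and 6.11 in Dicer KO vehicle, and 4.53, 5.58 and 5.39 in control vehicle libraries. LPS raised Pdss1 2.85-fold in Dicer KO and 2.06-fold in control cells. Exons of A130006I12Rik and Abi1 on the opposite strand cover 9.44% of the Pdss1 exons, and Abi1 averaged 417 CPM in Dicer KO LPS, 426 in control LPS, 192 in Dicer KO vehicle and 198 in control vehicle libraries, so the LPS response of Pdss1 is uncertain and the part of Abi1 in it was not tested. Dicer KO was higher under LPS (0.62 ± 0.11, adjusted p = 7.36e-05) and not called in vehicle (0.16 ± 0.12), and the interaction (0.47 ± 0.16, adjusted p = 0.0321) reached an adjusted p of 0.231 and was lost under 10 of 19 other settings.

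Dhdds and Nus1 together form the enzyme that starts dolichol synthesis. Nus1 was at 89.6, 96.3 and 88.4 CPM in Dicer KO LPS, 106, 101 and 106 in control LPS, 99.3, 109 and 98.8 in Dicer KO vehicle, and 103, 103 and 92.4 in control vehicle libraries. It was slightly lower in Dicer KO under LPS (-0.19 ± 0.06, adjusted p = 0.00901). Neither that call nor its interaction (-0.23 ± 0.08, adjusted p = 0.0347) held in the DESeq2 test, and over all settings tried the adjusted p reached 0.0783 for the first and 0.156 for the second. Dhdds lay between 27.5 and 32.4 CPM in Dicer KO LPS, 31.7 and 32.7 in control LPS, 32.8 and 35.3 in Dicer KO vehicle, and 38.2 and 39.4 in control vehicle libraries. It was lower in Dicer KO vehicle cells (-0.18 ± 0.06, adjusted p = 0.0213, up to 0.0998 under other settings), and LPS lowered it in both genotypes (-0.20 ± 0.06 in Dicer KO, adjusted p up to 0.138 under other settings, and -0.27 ± 0.06 in control cells).

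Stard4 encodes a carrier that moves sterols between membranes and is a known SREBP2 target. It was at 14.6, 19.2 and 19.2 CPM in Dicer KO LPS, 67.1, 68.2 and 62.7 in control LPS, 17.96, 26.9 and 21.5 in Dicer KO vehicle, and 15.8, 15.1 and 25.2 in control vehicle libraries. Control LPS libraries were more than 2-fold above each of the other 9 libraries, which overlapped across groups. The genotype difference of -1.90 ± 0.21 under LPS, or 3.74-fold lower (adjusted p = 2.93e-05), was the second widest of the 32 after that of Fdps. LPS raised Stard4 3.53-fold in control cells, and the Dicer KO response was not called (-0.32 ± 0.23, adjusted p = 0.217).

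Among the control genes, Srebf2 and Insig1, both known targets of SREBP2 itself, were lower in Dicer KO cells under LPS, as most enzymes were. Srebf2, the gene of SREBP2, was at 121, 135 and 147 CPM in Dicer KO LPS, 233, 240.0 and 237 in control LPS, 89.7, 135 and 106 in Dicer KO vehicle, and 67.2, 72.7 and 103 in control vehicle libraries. Control LPS libraries were above all others, and Dicer KO LPS libraries overlapped the Dicer KO vehicle ones. The genotype difference was -0.82 ± 0.18 under LPS (adjusted p = 0.00314) and 0.45 ± 0.18 in vehicle (adjusted p = 0.0679). Without the vehicle libraries that stood apart, left out after their values were seen, the vehicle difference was 0.49 (adjusted p = 3.13e-05). The vehicle difference was called under 5 of 20 other settings, the DESeq2 test among them (adjusted p = 0.0491), and over all settings its adjusted p reached 0.235. LPS raised it 2.93-fold in control cells, with 0.29 ± 0.18 in Dicer KO cells (adjusted p = 0.169, -0.46 with library totals). Insig1, which holds the SCAP complex back, was at 48.8, 63.01 and 64.02 CPM in Dicer KO LPS, 98.8, 92.3 and 91.5 in control LPS, 32.9, 52.4 and 36.5 in Dicer KO vehicle, and 17.1, 18.5 and 31.8 in control vehicle libraries. Dicer KO was lower under LPS (-0.68 ± 0.24, adjusted p = 0.0382) and higher in vehicle (0.85 ± 0.26, adjusted p = 0.0242), with no overlap in either. Both calls were fragile, the first lost under 9 of 20 other settings with an adjusted p of up to 0.119 and the second under 4 with up to 0.0869. LPS raised Insig1 4.197-fold in control cells, and the interaction was -1.53 ± 0.35 (adjusted p = 0.00943).

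Insig2, the relative of Insig1 with the same role, was at 37.3, 37.5 and 34.8 CPM in Dicer KO LPS, 34.8, 34.5 and 33.9 in control LPS, 24.99, 22.1 and 24.5 in Dicer KO vehicle, and 28.9, 28.4 and 26.6 in control vehicle libraries. It was lower in Dicer KO in vehicle (-0.23 ± 0.06) and not called under LPS (0.09 ± 0.06). LPS raised it 1.53-fold in Dicer KO and 1.23-fold in control cells, yet with library totals these responses were -0.14 and -0.23 on the log2 scale. Its interaction was higher (0.32 ± 0.09, adjusted p = 0.0116) and was lost with library totals (adjusted p = 0.459). Scap, the escort, was at 47.4, 47.4 and 48.2 CPM in Dicer KO LPS, 39.1, 41.7 and 41.1 in control LPS, 43.7, 45.2 and 43.9 in Dicer KO vehicle, and 36.02, 34.6 and 39.6 in control vehicle libraries. Dicer KO libraries were above the controls under both treatments (0.23 ± 0.06 in LPS, -0.12 with library totals, and 0.27 ± 0.06 in vehicle). Exons of 5830462I19Rik on the opposite strand cover 13.2% of the Scap exons, and that gene averaged 13.007 CPM in Dicer KO LPS, 10.7 in control LPS, 11.6 in Dicer KO vehicle and 9.29 in control vehicle libraries, so the Scap values are uncertain. LPS raised Scap in control cells by 0.15 ± 0.06 (adjusted p = 0.0289), where the groups overlapped. That call was lost under 6 other settings, with an adjusted p of up to 0.248, and library totals gave -0.38. The proteases that release SREBP2, encoded by Mbtps1 and Mbtps2, fell with LPS in both genotypes. Mbtps1 ranged from 33.5 to 39.3 CPM in Dicer KO LPS, 36.9 to 41.1 in control LPS, 70.7 to 72.9 in Dicer KO vehicle and 64.7 to 71.4 in control vehicle libraries. Mbtps2 ranged from 31.9 to 35.6, 33.9 to 34.8, 46.6 to 47.0 and 43.9 to 47.5 CPM in the same order, and 28.4% of its exons overlap Yy2 on the same strand, a gene at 0 CPM in all groups. Neither protease gene was called between genotypes in either treatment (log2 fold changes of -0.10 to 0.09, adjusted p of 0.208 to 0.683).

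On a scale of CPM per kb of exon, which takes exon length into account, Hmgcs1 led in both LPS groups, with 46.2 in Dicer KO and 82.9 in control cells. Fdft1 followed, at 42.9 in Dicer KO LPS and 40.9 in control LPS, and next came Acly in Dicer KO LPS (22.3) and Msmo1 in control LPS (33.3). In vehicle Fdft1, Acly and Nus1 led in both genotypes. The place of Fdft1 is uncertain for the reasons given above, and so are the places of genes with near-identical copies. In control LPS libraries Srebf2 (32.9), Insig1 (30.5) and Cyp51 (29.7) were also above Acly (27.3), and Nus1 was at 21.5.

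Genes beside the route were counted in 4 lists. Their counts between genotypes are to be read against 28.8% of all genes higher and 27.0% lower under LPS, and 25.0% higher and 21.2% lower in vehicle. Of the 10 fatty acid targets of SREBP, 0 were higher and 9 lower in Dicer KO cells under LPS (median -1.35), 0 higher and 2 lower in vehicle, and 8 had a lower LPS response in Dicer KO (18.8% of all genes). Scd2, a fatty acid desaturase, averaged 12.96 ± 0.565 CPM in Dicer KO LPS and 113 ± 5.01 in control LPS (-3.12 ± 0.19, adjusted p = 2.48e-07). Aacs, which activates acetoacetate for lipid synthesis, averaged 21.9 ± 1.64 and 56.5 ± 3.87 CPM (-1.37 ± 0.12), and Srebf1, the gene of SREBP1, 52.8 ± 1.23 and 94.9 ± 4.51 CPM (-0.85 ± 0.07). The list on oxysterols, LXR and efflux had 4 higher and 2 lower of 8 tested genes under LPS and 4 higher and 3 lower in vehicle, with Cyp7b1 not tested. Abcg1, a sterol exporter, averaged 358 ± 14.6 CPM in Dicer KO LPS and 114 ± 7.11 in control LPS (1.66 ± 0.06, adjusted p = 4.38e-13). Ch25h makes an oxysterol that restrains SREBP2, and averaged 165 ± 2.097 and 36.3 ± 3.92 CPM (2.18 ± 0.08, adjusted p = 2.18e-12). Mylip, a ligase under LXR control, averaged 61.7 ± 5.77 and 29.6 ± 1.55 CPM (1.06 ± 0.08). All 3 genes were higher in Dicer KO cells under both treatments, with 0.63 ± 0.06, 1.57 ± 0.39 and 0.37 ± 0.07 in vehicle. Ch25h was near the floor in vehicle, at 0.858 ± 0.214 CPM in Dicer KO and 0.289 ± 0.192 in control libraries. Its lowest counts there were 12 and 2 reads, so its vehicle difference is uncertain.

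The list on sterol uptake, storage and transport had 4 higher (36.4%) and 3 lower (27.3%) of 11 genes under LPS and 7 higher and 1 lower in vehicle. In it Stard3, a late endosomal sterol carrier (0.64 ± 0.06), and Nceh1, a cholesterol ester hydrolase (1.42 ± 0.11), were higher in Dicer KO LPS, and the oxysterol binding protein gene Osbp was lower (-0.49 ± 0.05). In vehicle too, Stard3 and Nceh1 averaged more in Dicer KO (148 and 449 CPM) than in control libraries (78.8 and 301). Osbp averaged 58.6 CPM in Dicer KO vehicle and 60.6 in control vehicle libraries. The list on turnover in the endoplasmic reticulum and on isoprenoid use had 5 higher (35.7%) and 4 lower (28.6%) of 14 under LPS and 7 higher and 3 lower in vehicle. There Rnf139, a ubiquitin ligase of the endoplasmic reticulum, was 1.43 ± 0.07, and Tatdn1 on the opposite strand covers 22.3% of its exon bases. Erlin2, a lipid raft protein of that membrane, was 0.66 ± 0.06, and Rabggta, which attaches geranylgeranyl groups to Rab proteins, was -1.08 ± 0.12. These 3 differed in the same directions in vehicle. Rnf139, Erlin2 and Rabggta averaged 61.1, 106 and 17.2 CPM in Dicer KO vehicle and 38.0, 56.5 and 22.1 in control vehicle libraries. Both lists lay near the shares of all genes under LPS. With LPS, 1 fatty acid target was higher and 6 lower in Dicer KO cells, against 5 and 2 in control cells. The oxysterol list had 5 higher and 3 lower in Dicer KO and 4 and 4 in control cells, the uptake list 3 and 7 and then 4 and 7, and the turnover list 3 and 9 and then 4 and 6, beside shares over all genes of 37.4% and 42.7% in Dicer KO and 38.0% and 41.1% in control cells. In the interaction the oxysterol list had 3 higher and 1 lower, the uptake list 2 and 4, and the turnover list 1 and 5. Over all genes 14.9% were higher and 18.8% lower there. These lists were chosen with earlier results of these data known and are descriptions.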

How the data were processed

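Messenger RNA was measured in 12 libraries of 4 groups, made with a stranded kit, as the labels' protocols state. STAR 2.5, DESeq2, mm10 and GRCm38.p5 are named in the submitters' processing notes. The files deposited by the authors hold whole-number read counts per Ensembl gene, and which program counted them, and with which strand setting, is not given in the sources used here. GENCODE M21 (GRCm38) gave symbols to 45143 of 46078 identifiers, and 0.141% of counts were on the others. Rows for reads not assigned to a gene were left out. Reads on no annotated feature were 45.8 to 46.8% of reads, ambiguous ones 0.626 to 0.768%, and those without a unique alignment 9.855 to 11.6%. Reads assigned to genes were 41.7 to 43.3%.

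Counts were fitted with edgeR 4.0.16 in R 4.3.3 (filterByExpr, TMM, robust quasi-likelihood, 1 mean per group over all 12 libraries). The biological coefficient of variation was 6.30%. Tests were two-sided, adjusted by Benjamini-Hochberg over 13837 genes in each of 5 comparisons, and called under 0.05. The procedure was tested on simulated data. All 32 members are named, and of each related list up to 3 genes with the smallest adjusted p between genotypes under LPS. Members and lists were chosen with earlier results of these data known. Alternatives were DESeq2 1.42.0, its size factors, library totals, other filters, a replicate block, fits of the compared groups only, and fits without single libraries or without the 2 vehicle libraries that stood apart. Same-numbered libraries showed no regular shared deviation, which cannot decide whether the numbers pair the samples.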

Additional observations from a re-analysis of the deposited data

Results flagged for a closer look

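For 23 of the 32 genes the LPS response differed between the genotypes, by the test of that difference itself (edgeR quasi-likelihood interaction, adjusted p under 0.05, n = 3 libraries per group), where 33.7% of all genes were called, 18.8% lower and 14.9% higher. Values are log2 responses in Dicer KO minus control cells. In acetyl-CoA supply the difference was -0.57 for Acly and -1.09 for Acss2. In the early mevalonate pathway it was -1.76 for Acat2, -1.65 for Hmgcs1, -1.33 for Mvk, -0.45 for Pmvk, -1.56 for Mvd, -1.85 for Idi1 and -2.26 for Fdps. From squalene to lanosterol it was -2.28 for Sqle and -1.86 for Lss.

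After lanosterol it was -1.51 for Cyp51, -1.53 for Msmo1, -0.88 for Nsdhl, -2.14 for Hsd17b7, -1.09 for Sc5d and -1.52 for Dhcr7. In the isoprenoid branches it was -0.23 for Nus1 and 0.47 for Pdss1. Stard4 had -2.14, and among the control genes Srebf2 had -1.26, Insig1 -1.53 and Insig2 0.32. The widest of these, for Sqle, Fdps, Hsd17b7 and Stard4, were 4-fold or more. The calls of Cyp51, Nus1 and Pdss1 were lost under 10 to 12 of 19 other settings, and that of Insig2 with library totals.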

How the results depend on the processing

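Of 111 called gene results over the 5 comparisons, 83 kept direction and call under every alternative run (20 per comparison, 19 for the interaction), and 10 changed sign, each of them with library totals. Of 49 results not called, 1 kept its direction and stayed uncalled under every alternative run. The counts of members lower under LPS between genotypes, higher with LPS in control cells, and lower in the interaction stayed within 1.5 times their value under every alternative. Members higher in Dicer KO vehicle cells numbered 8, but 5 with only the groups compared, 17 without the 2 vehicle libraries that stood apart, and 5 to 18 with single libraries left out. With LPS in Dicer KO cells 14 were higher, but 6 with library totals, and 10 were lower, but 19 with library totals and 6 in the DESeq2 test. With LPS in control cells 6 were lower, but 14 with library totals. In the interaction 2 were higher, but 0 with library totals, 1 without both vehicle libraries, and 1 to 2 with single libraries left out. The replicate block gave equal member counts but not the same calls, since in vehicle Srebf2 was then called (adjusted p = 0.0384) and Nsdhl was not (0.0597), and in the interaction Lbr was called (0.0457) and Cyp51 was not (0.0523). With the block the counts were 3 and 22 called higher and lower between genotypes under LPS, 8 and 3 in vehicle, 14 and 10 with LPS in Dicer KO, 22 and 6 in control, and 2 and 21 in the interaction. Deviations from the group mean had correlations of -0.23 to 0.18 between same-numbered libraries and -0.32 to 0.34 between differently numbered ones. With 3 libraries per group these values cannot decide whether the replicate numbers pair the samples.

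Signs turned as follows, in log2 fold change. With library totals, which moved the median of all genes down in each comparison, the genotype difference under LPS was -0.282 for Fdft1, -0.123 for Scap and -0.265 for Insig2. In vehicle it was -0.0946 for Fdps, -0.0335 for Fdft1, -0.0215 for Dhcr7, -0.0876 for Nus1, -0.0362 for Mbtps1 and -0.0977 for Mbtps2. The LPS response in Dicer KO was -0.677 for Mvk, -0.0918 for Pmvk, -0.0329 for Mvd, -0.499 for Lss, -0.369 for Nsdhl, -0.293 for Ggps1, -0.465 for Srebf2, -0.641 for Scap, -0.215 for Insig1 and -0.135 for Insig2. In control cells it was -0.131 for Acly, -0.2998 for Acss2, -0.228 for Ggps1, -0.452 for Nus1, -0.375 for Scap and -0.225 for Insig2. The interaction was -0.0645 for Ggps1 and -0.158 for Dhdds.

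The other turns were of values near 0 that were not called in the report, and their cause was not tested. With DESeq2 size factors, Mbtps2 between genotypes under LPS was 0.0138, and the interaction was 0.0247 for Fdft1, 0.0396 for Ebp and 0.00938 for Scap. In the DESeq2 test these were 0.009099, 0.0174, 0.0316 and 0.00225. With no filter, Fdps and Mbtps2 in vehicle were -0.000587 and -0.00272, and the Ebp interaction was 0.0136, or 0.00204 with a mean of at least 1 CPM. Without both vehicle libraries, vehicle differences were -0.0727 for Fdps, 0.0262 for Ebp, -0.0564 for Nus1 and -0.004001 for Mbtps2. With single libraries left out, the difference under LPS ranged over -0.1304 to 0.00728 for Ebp. In vehicle it ranged over -0.103 to 0.02698 for Pmvk, -0.11004 to 0.0422 for Mvd, -0.163 to 0.175 for Fdps, -0.0934 to 0.0129 for Lbr, -0.128 to 0.0645 for Ebp, -0.0116 to 0.0657 for Nus1 and -0.002401 to 0.0535 for Mbtps2. The response of Mvk in Dicer KO ranged over -0.02605 to 0.246, and the interaction over -0.141 to 0.06699 for Fdft1, -0.1295 to 0.0632 for Ebp and -0.0973 to 0.00333 for Scap.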
